A study of Mus musculus with 2 samples.

Results

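The genes described here are 10 targets of WNT signaling whose products dampen the pathway or that lie beside such a gene: *Axin2*, *Nkd1*, *Nkd2*, *Apcdd1*, *Notum*, *Notumos*, *Wif1*, *Rnf43*, *Znrf3* and *Sp5*. They were taken by name, with earlier results of these data known. Every probe that the array files list under one of these names was used. This gave 13 of 39429 probes and 10 of 29924 gene names. The RNA came from wildtype NMRI mouse ureters of undetermined sex, explanted at E11.5 and cultured on membranes for 18 h without serum. Treated explants received 10 µM IWP-2, an inhibitor of the acyltransferase PORCN, and control explants the solvent DMSO alone (2:1000). A treated and a control pool were hybridized together on each of 2 two-color Agilent arrays. In replicate 1, AlexaFluor647 labeled the treated RNA and AlexaFluor555 that of the control, with the reverse in replicate 2. Each channel was a pool of whole ureters with epithelium and mesenchyme, so fewer cells of a type and less RNA per cell cannot be told apart.

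WNT proteins need a lipid that PORCN adds before they can be secreted and bind Frizzled receptors with the co-receptors LRP5 and LRP6. In the canonical branch, binding stops the destruction of β-catenin, which then enters the nucleus and activates genes together with TCF/LEF factors. Several of the activated genes encode inhibitors of the same pathway and form a negative feedback loop, and their transcript level is widely used as a readout of canonical activity. In the early ureter, WNT ligands of the epithelium act on the adjacent mesenchyme. The comparison of IWP-2 with control asks which of these feedback transcripts depended on WNT secretion over this short culture.

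In IWP-2-treated ureters, 5 of the 10 genes were lower at a false discovery rate (FDR) of 0.05 in limma, and none was higher. These were *Notumos*, *Nkd1*, *Apcdd1*, *Sp5* and *Wif1*, with mean log2 changes between -1.93 and -0.84. *Axin2* was lower by a similar amount but stayed just above the threshold (FDR 0.0502). *Znrf3*, *Notum*, *Nkd2* and *Rnf43* had mean changes between -0.25 and 0.01 and did not pass. Over all 20119 genes tested, 1.15% were lower and 0.611% were higher at this FDR (232 and 123 genes), and with arrays centered on their median in place of loess 36 and 7 genes passed. Of the 10 feedback genes, 2 passed with that centering, as *Apcdd1* (FDR 0.0546 in limma), *Sp5* (FDR 0.0855) and *Wif1* (FDR 0.224) were lost. Of the 13 probes of the 10 genes, 8 were lower in the fit over probes, in which 1.23% of all 26947 probes were lower. At an unadjusted p under 0.05 in limma, 7 members were lower and 0 higher. Of all genes tested, 954 were lower and 1745 higher at this threshold. The median change of the 10 genes was -0.92, and that of all genes tested was 0.00, to which the loess normalization brings it.

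Changes are log2 ratios of treated over control after background correction and loess normalization within each array, as the mean of 2 arrays. All 13 probes had 4 of 4 spots well above the local background in the treated and the control channel of both arrays, and 0 spots of the arrays were saturated. Of the 52 spots of these probes, 3 on replicate 1 and 1 on replicate 2 were dropped as outliers. Across all genes tested, replicates 1 and 2 correlated with a Pearson coefficient of 0.465 in their changes, a description across genes that are not independent replicates. The median SD between arrays was 0.11, and the smallest mean change of a gene past the FDR was 0.57. AlexaFluor647 gave the brighter channel on both arrays, with a median probe intensity of 618 (treated) against 307 (control) on replicate 1 and of 352 (treated) against 677 (control) on replicate 2.

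**Figure D1:**
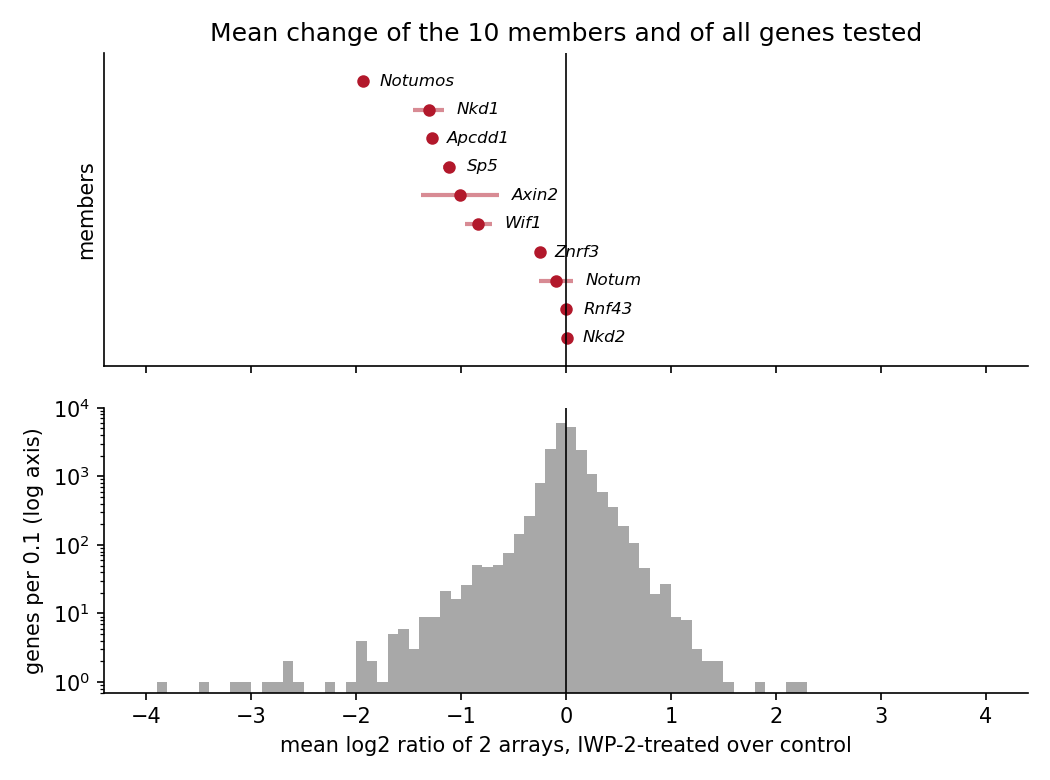
Top, mean log2 change of each of the 10 genes (points) with the values on the 2 arrays as the ends of the bars. Bottom, number of the 20119 genes tested per bin of 0.1 in mean log2 change, on a log axis. *Notumos* at -1.93 was the 14th lowest gene, 5 genes lay between -1.31 and -0.84, and the other 4 lay between -0.25 and 0.01.

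On the log2 scale after normalization within and between arrays, both treated pools lay below both control pools for 7 of the 10 genes, whereas this was so for 18.6% of all genes tested. These 7 genes were *Axin2*, *Nkd1*, *Apcdd1*, *Notumos*, *Wif1*, *Znrf3* and *Sp5*. The same 7 genes were lower on both arrays, as were 27.5% of all genes tested. For *Notum*, *Rnf43* and the brighter probe of *Nkd2*, treated and control levels overlapped.

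**Figure D2:**
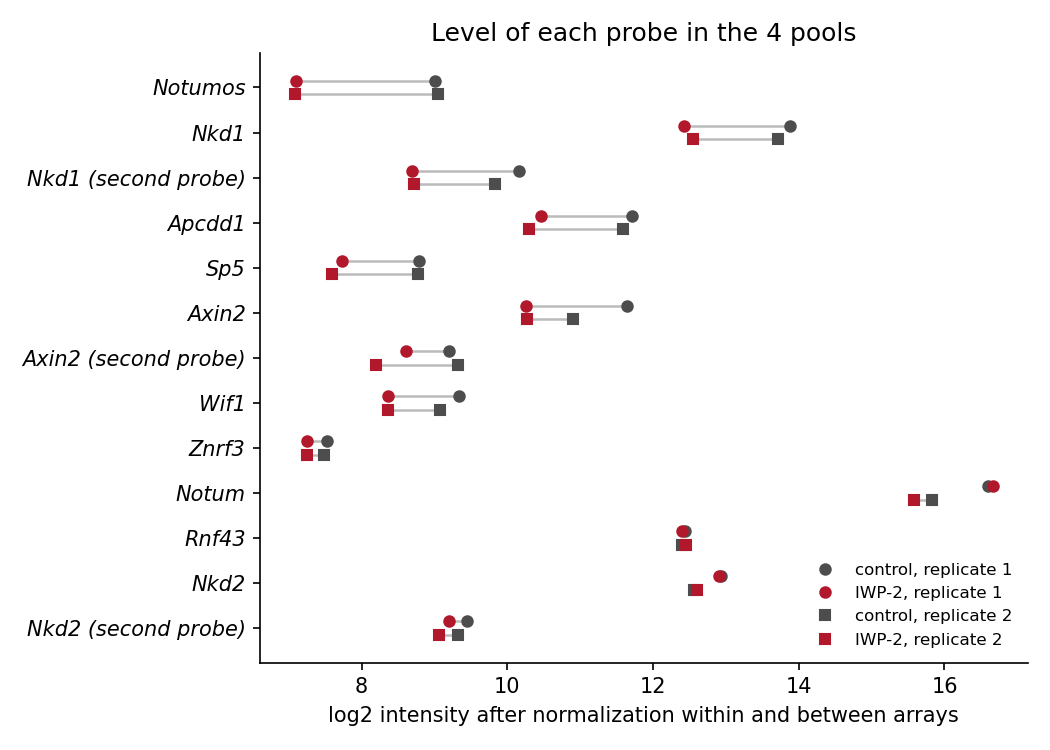
Log2 intensity of each of the 13 probes in the 4 pools (x axis), with treated pools in red and control pools in grey. Circles stand for replicate 1 and squares for replicate 2, and a line joins the 2 pools of an array. Red and grey points are apart for *Notumos*, *Nkd1*, *Apcdd1*, *Sp5*, *Axin2* and *Wif1*. They overlap for *Notum*, *Rnf43* and the brighter probe of *Nkd2*. For *Znrf3* and the other *Nkd2* probe they lie close together without overlap. Positions of different probes on the axis cannot be compared.

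*Axin2* encodes a scaffold of the complex that marks β-catenin for destruction, and it is the most widely used target gene of the pathway. The 2 *Axin2* probes lie 8107 bases apart on chromosome 11. Their first 30 of 60 bases are shown because they gave different values on the same array, with the brighter probe at chr11:108812034-108812093 and the other at chr11:108803927-108803986 (mm9, plus strand, as listed in the deposited files).
Axin2 brighter probe: cttggtacaataattattgtaattaagaga
Axin2 other probe: tcctgggggaacagattattattgctactc

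For the brighter *Axin2* probe, the log2 level was 10.26 and 10.27 in the treated pools and 11.64 and 10.90 in the control pools of replicates 1 and 2. The treated pools were alike, whereas the control pools were apart. The log2 change was -1.38 on replicate 1 and -0.64 on replicate 2, with a mean of -1.01 ± 0.53 (SD, n = 2 arrays). The gene missed the threshold in the fit over genes (FDR 0.0502 in limma), and the probe passed it in the fit over probes (FDR 0.0312 in limma).

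The other *Axin2* probe ran the opposite way between the arrays. Its log2 level was 8.60 and 8.20 in the treated pools and 9.20 and 9.33 in the control pools. The changes were -0.60 on replicate 1 and -1.13 on replicate 2, with a mean of -0.86 ± 0.37 (SD, n = 2 arrays; FDR 0.0274 in limma over probes). On replicate 1 the single spots of the brighter probe lay between -1.50 and -1.30 and those of the other between -0.74 and -0.52, and on replicate 2 between -0.70 and -0.59 and between -1.23 and -1.04. Thus, the spots of the probes did not overlap on either array, and the array with the larger fall differed. Replicate and dye cannot be told apart in this difference. Averaged over both probes, *Axin2* changed by -0.99 on replicate 1 and -0.88 on replicate 2, and it passed the threshold when the fit used the mean of all probes of each gene (FDR 0.0056 in limma).

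*Nkd1* and *Nkd2* encode the naked cuticle proteins, which bind Dishevelled inside the cell and limit the signal from the receptors. The 2 *Nkd1* probes lie 2308 bases apart on chromosome 8 and gave nearly the same change. Their first 30 bases are shown with the brighter probe at chr8:91116160-91116219 and the other at chr8:91118468-91118527 (mm9, plus strand).
Nkd1 brighter probe: cactaatatttagccagccttcatgtagaa
Nkd1 other probe: taagagatcaaggtagcgcataaaggctta

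The log2 level of the brighter *Nkd1* probe was 12.43 and 12.55 in the treated and 13.88 and 13.71 in the control pools. Its change was -1.45 on replicate 1 and -1.17 on replicate 2, and the mean was -1.31 ± 0.20 (SD, n = 2 arrays; FDR 0.0058 in limma over genes). This equals a 2.48-fold lower level. The other *Nkd1* probe changed by -1.47 and -1.12, with a mean of -1.30 ± 0.25 (SD, n = 2 arrays; FDR 0.0033 in limma over probes). Both *Nkd1* probes fell more on replicate 1 than on replicate 2.

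Its paralog *Nkd2* did not pass the test with either probe. The brighter probe, on chromosome 13 (chr13:73956776-73956835, minus strand), had a log2 level of 12.91 and 12.61 in the treated and 12.93 and 12.57 in the control pools. Its changes were -0.02 and 0.04, with a mean of 0.01 and a 95% interval of the fit over probes from -0.23 to 0.25. On replicate 1 this value rests on 2 spots, since the other 2 were outliers. The *Nkd2* probe 805 bases away changed by -0.24 and -0.27, with a mean of -0.25 ± 0.02 (SD, n = 2 arrays; FDR 0.350 in limma over probes). The treated pools were below the control pools with the latter probe and overlapped them with the former. No test of the difference between *Nkd1* and *Nkd2* was made, and the 95% intervals of their probes did not overlap (-1.58 to -1.02 over both *Nkd1* probes, -0.49 to 0.25 over both *Nkd2* probes).

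*Notum* encodes a secreted enzyme that removes the lipid from WNT proteins, and *Notumos* is the name of a transcript from the opposite strand beside it. The 2 probes lie 7743 bases apart on chromosome 11, with that of *Notum* at chr11:120515209-120515268 on the minus strand and that of *Notumos* at chr11:120523011-120523070 on the plus strand (mm9). Their first 30 bases are shown because *Notumos* was lower and its neighbor *Notum* did not pass the test.
Notum probe: gtccctcccagcccccactgatcatgttcg
Notumos probe: ctgggagccaactttggcatgcacaaaact

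*Notumos* showed the largest fall of the 10 genes. Its log2 level was 7.10 and 7.09 in the treated and 9.00 and 9.05 in the control pools, so that replicates differed far less than treated from control. The log2 change was -1.90 on replicate 1 and -1.96 on replicate 2, with a mean of -1.93 ± 0.04 (SD, n = 2 arrays; FDR 7.9e-04 in limma over genes). It was the 14th lowest of the 20119 genes, at 26.2% of the control level. The raw treated intensity was 168 on replicate 1 over a local background of 84.2 and 74.4 on replicate 2 over 27.5, while the raw control intensity was 336 over 26.5 and 714 over 83.5. The treated signal was dim, and the size of this fall moved with the processing. With no background correction the mean change was -2.16. With the processed intensities of the scanner software, which differ in both background correction and dye normalization, it was -2.99 (7.95-fold).

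*Notum* did not pass the test. Its log2 level was 16.66 and 15.58 in the treated and 16.60 and 15.83 in the control pools, so that the arrays differed more than the treatments. The change was 0.07 on replicate 1 and -0.26 on replicate 2, with a mean of -0.10 ± 0.23 (SD, n = 2 arrays; FDR 0.887 in limma over genes). The 95% interval of the fit over probes ran from -0.37 to 0.18, and that of *Notumos* from -2.17 to -1.69. The raw intensities of the *Notum* probe reached 179191 and were not marked as saturated. The *Notum* probe on replicate 1 rests on 3 spots, which lay between -0.02 and 0.17.

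*Wif1* encodes a secreted protein that binds WNT ligands outside the cell. Its probe lies at chr10:120537079-120537138 (mm9, plus strand). The log2 level was 8.37 and 8.36 in the treated and 9.33 and 9.07 in the control pools, with no overlap. The change was -0.97 on replicate 1 and -0.71 on replicate 2, with a mean of -0.84 ± 0.18 (SD, n = 2 arrays; FDR 0.0226 in limma over genes). *Wif1* was the smallest of the 5 falls that passed, and its call was lost under 4 of 9 other ways of processing (FDR between 0.0126 and 0.501 over the 9).

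*Apcdd1* encodes a membrane-bound glycoprotein that binds WNT and LRP5 at the cell surface. The log2 level was 10.46 and 10.30 in the treated and 11.71 and 11.59 in the control pools. The changes of -1.25 and -1.29 were nearly equal on the 2 arrays, with a mean of -1.27 ± 0.03 (SD, n = 2 arrays; FDR 0.0041 in limma over genes). This equals a 2.42-fold lower level. One spot of *Apcdd1* was dropped as an outlier on replicate 2, and the remaining 3 lay between -1.30 and -1.28.

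*Rnf43* and *Znrf3* encode transmembrane ubiquitin ligases that remove Frizzled receptors from the cell surface, and R-spondins act by withdrawing them. *Rnf43* (chr11:87548958-87549017, mm9, plus strand) had a log2 level of 12.39 and 12.45 in the treated and 12.43 and 12.40 in the control pools. Its changes of -0.04 and 0.05 gave a mean of 0.00 (FDR 0.997 in limma over genes), with a 95% interval from -0.24 to 0.25 in the fit over probes. Thus, a fall of the size seen for *Wif1* lies outside this interval.

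*Znrf3* (chr11:5180918-5180977, mm9, minus strand) was slightly lower on both arrays. Its log2 level was 7.25 and 7.25 in the treated and 7.52 and 7.48 in the control pools, without overlap. The changes were -0.27 and -0.23, with a mean of -0.25 ± 0.03 (SD, n = 2 arrays), an FDR of 0.336 in limma and an unadjusted p of 0.0396 in the fit over genes. The raw treated intensity was 186 over a background of 82.8 on replicate 1 and 86.8 over 25.5 on replicate 2. The change moved to -0.49 with the processed intensities, again without passing the threshold. *Rnf43* and *Znrf3* thus had 95% intervals that overlapped, and they were not tested against each other.

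*Sp5* encodes a zinc-finger transcription factor that binds GC-rich DNA and restrains the induction of WNT target genes. Its probe lies at chr2:70315688-70315747 (mm9, plus strand). The log2 level was 7.73 and 7.60 in the treated and 8.79 and 8.77 in the control pools. The changes were -1.06 and -1.17, with a mean of -1.12 ± 0.08 (SD, n = 2 arrays; FDR 0.0066 in limma over genes), which is a 2.17-fold lower level. As for *Notumos*, the treated signal was dim, with raw intensities of 263 over a background of 83.5 and 121 over 28.6. The mean change was -1.57 with the processed intensities.

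The promoter of *Sp5* is shown because, of the member windows searched, it alone had a match to the core of the TCF/LEF motif. The core was searched on both strands as CTTTGAA, then as CTTTGAT, then as CTTTGTA and last as CTTTGTT. The windows are those of RefSeq on GRCm38.p6, with 250 bases before and 50 after the start of the gene, and 7 windows of 6 of the 10 genes were at hand (*Axin2*, *Nkd1*, *Nkd2*, *Wif1*, *Rnf43* with 2, and *Sp5*). The window of *Sp5* is chr2:70474673-70474972 on the plus strand, and capitals mark the 2 matches. The first is CTTTGTT on the minus strand at position -222 from the start, and the second is CTTTGAT on the plus strand at -104.
Sp5 promoter: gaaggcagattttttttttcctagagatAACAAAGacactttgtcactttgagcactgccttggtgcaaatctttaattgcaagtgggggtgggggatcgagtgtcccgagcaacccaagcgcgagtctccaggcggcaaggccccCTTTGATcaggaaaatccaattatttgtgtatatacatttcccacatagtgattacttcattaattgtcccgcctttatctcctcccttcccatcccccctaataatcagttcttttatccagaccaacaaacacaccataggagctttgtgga
Of all 32851 windows of this length, 16.88% held at least 1 match and 1.939% held 2 or more. The other 6 windows held none of these letters, including those of *Nkd1* and *Wif1*, which were lower at the FDR, and those of *Axin2*, *Nkd2* and *Rnf43*, which did not pass in the fit over genes.

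**Figure D3:**
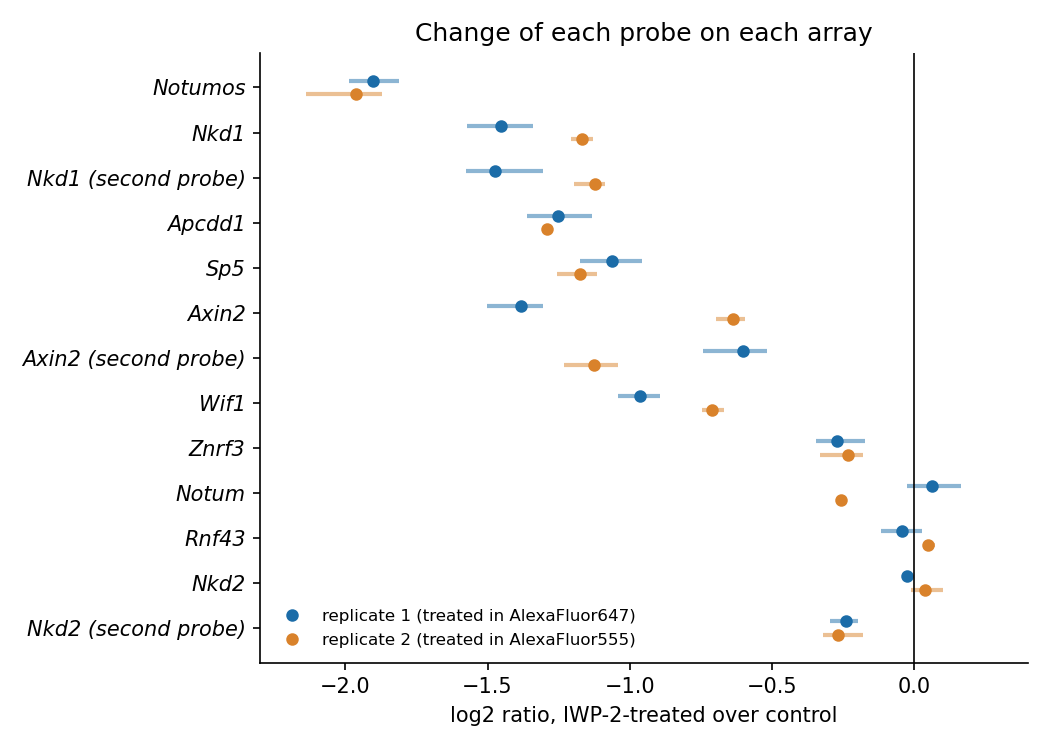
Log2 ratio of IWP-2-treated over control (x axis) for each of the 13 probes. Points are means over the spots of a probe on replicate 1 (blue) and replicate 2 (orange), and bars run from the lowest to the highest spot. The *Nkd1* probes have the same order of arrays, and the *Axin2* probes have opposite orders.

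Among themselves, the 10 genes formed no even series of changes. The 95% interval of *Notumos* (-2.17 to -1.69) lay below those of all other probes. The intervals of *Nkd1*, *Apcdd1*, *Sp5*, *Axin2* and *Wif1* overlapped, so their order is not resolved by 2 arrays. Those of *Znrf3*, *Notum*, *Rnf43* and both *Nkd2* probes began at or above -0.49, and none of them overlapped with that of *Wif1* (-1.10 to -0.58). Agreement between arrays also varied. The SD between arrays ran from 0.02 for the dimmer *Nkd2* probe to 0.53 for the brighter *Axin2* probe.

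The genes that passed belonged to several steps of the pathway. Lower at the FDR were the Dishevelled binding *Nkd1*, the secreted *Wif1*, the membrane-bound *Apcdd1*, the nuclear *Sp5* and *Notumos*. The 2 ligases that act on Frizzled receptors did not pass, nor did the secreted enzyme *Notum*.

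A stricter filter was modelled on the cut-offs of the study, and asked on both arrays for a 2-fold change or more and, for the brighter pool, a processed intensity no lower than 100. No test is involved. It kept *Nkd1* and *Apcdd1* (2 of the 10 genes), and it kept 0.167% of all 29899 gene names in this direction. *Notumos*, *Sp5* and *Wif1* were below the intensity limit, with processed control intensities of 79.5 and 82.1 for *Notumos*, 64.2 and 65.6 for *Sp5*, and 99.2 and 86.0 for *Wif1*. *Axin2* had processed intensities of 200 and 217 in the treated and 539 and 348 in the control pools, and it missed the fold limit on replicate 2. With a fold of 1.5 it was kept as well.

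**Figure D4:**
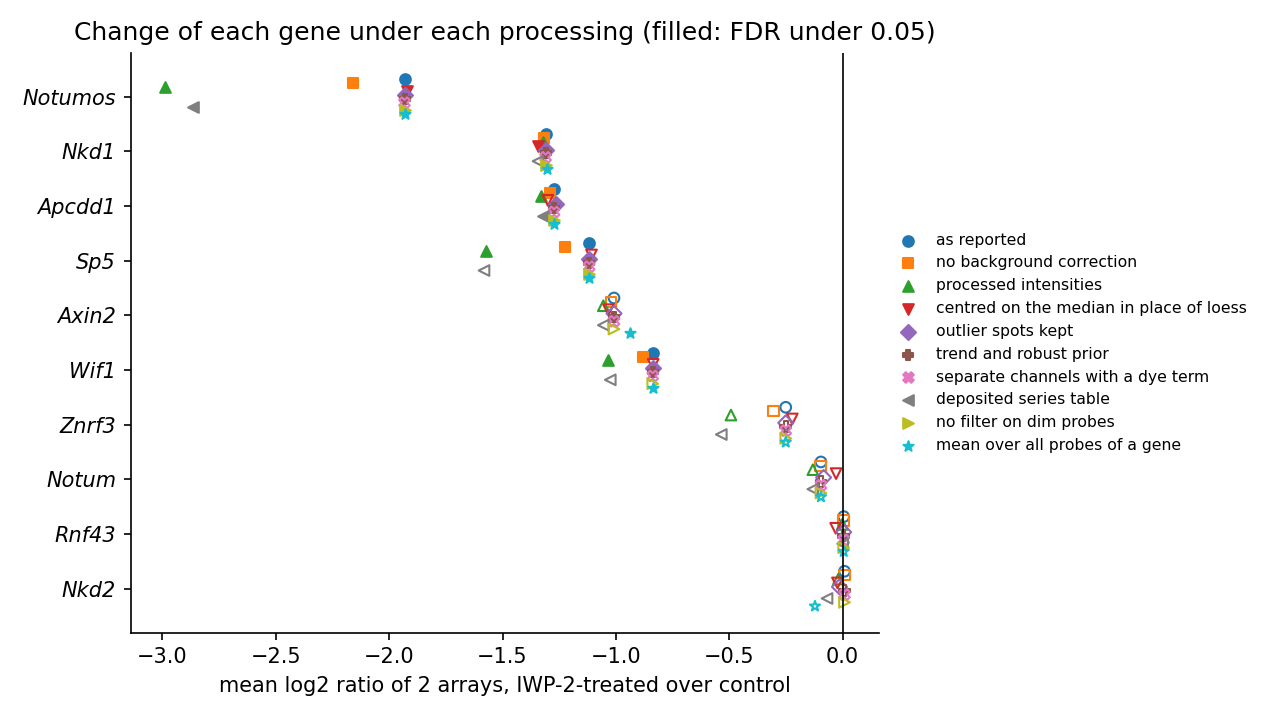
Mean log2 change of each of the 10 genes (x axis) as reported and under 9 other ways of processing, with filled symbols where the FDR in limma was under 0.05. The 5 genes that passed and *Axin2* stayed between -2.99 and -0.84, and *Notumos* and *Sp5* moved to larger falls with processed intensities.

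Under 9 other ways of processing, the 5 genes that passed and *Axin2* were lower in each. *Nkd1* (-1.34 to -1.30) and *Apcdd1* (-1.33 to -1.27) moved least. *Notumos* ranged from -2.99 to -1.92 and *Sp5* from -1.58 to -1.11. The calls of the 5 genes were lost under 1 of the 9 for *Notumos*, 2 for *Nkd1*, 2 for *Apcdd1*, 3 for *Sp5* and 4 for *Wif1*, with the highest FDR in limma between 0.361 and 0.501. When the 4 channels were fitted separately with a term for the dye, 0 of the 10 genes passed the FDR in limma, and 6 were lower at an unadjusted p under 0.05. In that fit 0 of all genes tested passed the FDR, while 564 were lower and 789 higher at an unadjusted p under 0.05.

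Other inhibitors of WNT signaling were affected in part. From a list of 33 such genes, 32 were tested, of which 3 were lower and 0 higher at the FDR. At an unadjusted p under 0.05 in limma, 12 were lower and 2 higher, as were 954 and 1745 of all 20119 genes tested. The median change of this list was -0.09. Lower were *Dact1*, a Dishevelled binding protein, by -0.90 (FDR 0.0199 in limma), *Tle4*, a Groucho co-repressor of TCF/LEF factors, by -0.85 (FDR 0.0173), and the secreted *Sfrp2* by -0.81 (FDR 0.0180). *Dkk4* was not well enough above background to be tested.

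No gene on a list of 22 core components of canonical signaling passed the test. The receptor gene *Fzd10* and the TCF/LEF genes *Tcf7* and *Lef1*, which were lower, are in the list of target genes below. All 22 genes of this list were tested, and 0 passed the FDR in limma while 2 were lower and 0 higher at an unadjusted p under 0.05, with a median change of -0.03. The largest change was that of *Bcl9*, a co-factor of β-catenin, at -0.32 (FDR 0.225 in limma). *Porcn* itself, whose product IWP-2 inhibits, had a change of 0.09 (FDR 0.901).

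From a list of 21 further WNT target genes, drawn up apart from the lists of inhibitors, 18 were tested. The list holds *Tnfrsf19*, which the study counts among WNT antagonists, and *Id2*, which the study uses as a target of BMP4 signaling. *Mmp7* and *Fgf20* were not well enough above background, and *Axud1* was not among the gene names of the files. Of the 18, 8 were lower and 0 were higher at the FDR in limma (11 and 2 at an unadjusted p under 0.05), with a median change of -0.46. *Tnfrsf19* and *Id2* were among the 8. The largest falls that passed were those of the receptor gene *Fzd10* by -2.29 (FDR 4.3e-04), the transcription factor genes *Sox9* by -1.30 (FDR 0.0108), *Msx1* by -0.96 (FDR 0.0117), *Sp8* by -0.90 (FDR 0.0430) and *Tcf7* by -0.89 (FDR 0.0153), and *Lef1* by -0.89 (FDR 0.0137). *Notumos* lay between *Fzd10* and *Sox9* in size.

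Markers of cell types moved with the treatment too, and all of those listed were tested. Of 6 markers of the ureteric mesenchyme, the tissue that responds to epithelial WNT ligands, *Foxf1* (-1.57), *Tbx18* (-1.03) and *Tcf21* (-0.77) were lower at the FDR in limma. At an unadjusted p under 0.05, 3 of the 6 were lower and 1 was higher, which was *Pdgfrb* (0.50, FDR 0.0891), named after its values were seen. *Pdgfra* (-0.19) and *Twist2* (-0.16) passed neither threshold. The study proposes *Foxf1* as a direct WNT target and describes *Tbx18* as lost in mesenchyme without *Ctnnb1*. Cell number and regulation of these markers therefore cannot be told apart. The summed level of the 6 was 92274 and 97081 in the treated and 135247 and 125639 in the control pools on the intensity scale, without overlap. Of 8 epithelial markers, 0 passed (0 lower and 2 higher at an unadjusted p under 0.05), with *Gata3* largest at 0.32. The summed level of the 8 was 256776 and 318503 in the treated and 252498 and 268480 in the control pools, with overlap. The part of these differences in the changes of the feedback genes was not tested.

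Cells other than epithelium and mesenchyme were represented in all pools. Of 6 endothelial markers, *Kdr* (0.74) and *Cldn5* (0.65) were higher at the FDR in limma, and the median of the 6 was 0.52. All 6 endothelial markers were higher at an unadjusted p under 0.05 in limma. Their summed level was 85280 and 76394 in the treated and 61370 and 46213 in the control pools. Of 6 macrophage markers, *Adgre1* (0.92) was higher at the FDR, and all 6 were higher at an unadjusted p under 0.05 in limma. Their median was 0.45, with summed levels of 65025 and 50316 in the treated and 49989 and 36627 in the control pools. Of 6 nephrogenic mesenchyme markers, *Meox1* (0.96) was higher, and at an unadjusted p under 0.05 there were 2 lower and 1 higher, with a median of 0.08. Red cell and neural markers had 0 of 6 past the FDR each (5 of 6 higher at an unadjusted p under 0.05 in either list), with medians of 0.49 and 0.36, and the largest change of a red cell marker was that of *Hbb-bh1* (0.56). The part of these cells in the result for the feedback genes was not tested either.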

How the data were processed

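RNA pools of IWP-2-treated and control ureters were compared on 2 two-color arrays of 1 slide, with separate pools for each array per the methods. Per the file headers, the deposited scanner files hold the intensity of each spot and its local background, processed intensities, and other flag columns, written by Feature Extraction 12.2.0.7 (the submitters' processing notes name 10.7.3.1). The deposited series table holds a score, the authors' signed fold change per probe. No column was taken from the authors' comparisons, other than this table as an alternative setting. Each array held 174979 spots, with 4 per probe of 60 bases.

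Intensities were read with the data.table package (release 1.17.8) and analyzed with limma 3.58.1, both under R 4.3.3. Mean intensity was corrected by normexp (offset 50), and log2 ratios, computed here from the deposited intensities, were normalized by loess. Outlier spots were dropped and the spots of a probe averaged. Probes entered the fits where the share of spots well above background was over 0.5 in the same treatment on both arrays. The brightest kept probe stood for a gene. Levels are log2 intensities after loess and Aquantile normalization. The functions lmFit and eBayes were run on ratios turned to treated over control, with Benjamini-Hochberg adjustment over all genes or all probes. One residual degree of freedom per gene limits the precision, and the variance prior added 5.52 in the fit over genes. All 95% intervals are those of the fit over probes, with 7.47 degrees of freedom in total. Depth in reads does not apply to arrays, and their number sets the precision. The procedure was tested on simulated data, where unchanged genes made up a larger share of the calls than the nominal FDR. In the fit with a dye term the correlation within spots could not be estimated, and channels were taken as independent. Promoters are from RefSeq (GRCm38.p6), and probe positions are those of the files (mm9).

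The members and lists were chosen with earlier results of these data known. Named were all members with each probe, and of each other list up to 6 genes with the largest change past the FDR, or else the gene with the largest change. *Porcn*, the target of IWP-2, is named outside this rule, as are *Tnfrsf19*, *Id2*, *Pdgfrb*, *Pdgfra* and *Twist2*. The gene that this rule gives for the neural markers is not reported here.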

Additional observations from a re-analysis of the deposited data

How the results depend on the processing

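The count of 5 lower genes among the 10 fell to 2 when arrays were centered on the median in place of loess, to 2 with the deposited series table and to 0 in separate channels with a dye term, and it stayed within 1.5 times under the other 6 settings. The count of 8 lower probes changed to 0 with separate channels, 3 with the series table and 5 with no filter on dim probes. No setting gave a higher member. *Nkd2* changed sign to -0.018 with processed intensities, -0.023 with median centering, -0.014 with outlier spots kept, -0.069 with the series table and -0.12 as the mean of its probes. *Rnf43* moved to -0.0020 with processed intensities, -0.031 with median centering and 0 with the series table. Over all genes, 232 lower and 123 higher calls became 177 and 74 with no background correction, 172 and 76 with processed intensities, 36 and 7 with median centering, 290 and 226 with a trended, robust prior, 0 and 0 with separate channels (564 and 789 at an unadjusted p under 0.05 in limma), 1322 and 1038 with the series table, 98 and 21 with no filter and 278 and 224 with the mean of probes. The cause was not tested. The filter on fold and intensity kept 2 to 3 members with either array alone. The ratios used throughout already pair 1 treated with 1 control pool on each array. With 1 array left out, no residual degree of freedom remains, so values but no tests were obtained. Among the dim probes, that of *Znrf3* moved from -0.25 to -0.49 with processed intensities.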
